A study of Mus musculus with 35 samples.

Results

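Untreated adult mouse cardiac fibroblasts (CFs) transfected with the first of 2 siRNAs against IAMP, called siR-1, were compared with the same cells given a Scrambled siRNA. IAMP is a micropeptide encoded by the gene 4930523C07Rik, and the question the comparison addresses is which transcripts change in resting CFs when that transcript is knocked down. The comparison rests on 6 of the 35 libraries of the series, 3 with siR-1 and 3 with Scrambled, read over every gene of the deposited table (55487 genes, of which 19669 had enough counts to be tested). A second siRNA to the same transcript, siR-2, was sequenced in 3 further untreated libraries, and all 3 groups were also sequenced after IL-17 and after TGF-β, in 9 libraries each; the remaining libraries are of whole hearts and were not used here. The CFs were primary cells of 8-week-old mice, adherent cells from enzymatically digested hearts grown in high-glucose DMEM with 10% fetal bovine serum, and all groups share this background. The labels name no engineered allele, no strain for these cells and no stimulus for the untreated groups, and they give no separate times for untreated or TGF-β-treated cells. The study separated cardiomyocytes by sedimentation and states no marker-based sort of the remaining adherent cells, so other adherent cells of the heart can be present. Nothing in the labels says that replicates came from separate animals or cultures, so the p-values measure the spread between these libraries, which may be technical.

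CFs make and remodel the matrix of the heart, and when activated they become contractile myofibroblasts or secrete chemokines that recruit leukocytes. An siRNA guides the RNA-induced silencing complex to its matching transcript, but its seed can also pair with other transcripts, so a change seen with 1 siRNA and not with another siRNA to the same target is read apart from a change shared by both. In bulk RNA, fewer cells of a type and less RNA per cell cannot be told apart.

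The 9 untreated libraries summed to between 114763924 and 119232309 estimated counts, and the 10 most abundant genes took 6.23% to 7.22% of each. The root-mean-square distance of a library from its own group was 0.138 to 0.172 on the log2 scale. Scrambled replicate 3 stood apart in 1 respect, 5064 estimated counts of the liver transcript Alb, which was at 0 in all 3 siR-1 libraries. Its part in the results was not tested beyond leaving that library out. Levels below are in CPM, estimated counts scaled to a common library size by TMM. They are not divided by transcript length, so they are compared between samples. Remarks across genes, such as the sums of markers, are weighted by transcript length and rough. A read pair added about 6 estimated counts. Cardiomyocyte genes other than Tnnt2 averaged under 1 CPM, with Myh6 at no more than 11 estimated counts in any library and Myl7 at no more than 6. Endothelial, leukocyte, pericyte and mesothelial markers were present at low levels, and how they moved is given beside the lists.

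The targeted transcript was read first. 4930523C07Rik (ENSMUSG00000090394, GRCm38 chr1:160044382-160080208) stood at 22, 22.7 and 25.8 CPM in the 3 Scrambled libraries and at 2.51, 3.51 and 2.97 CPM with siR-1. All 3 siR-1 libraries lay below every Scrambled library, the transcript was 7.84-fold lower, and the log2 fold change was -2.97 ± 0.11 (SE; edgeR quasi-likelihood test, Benjamini-Hochberg adjusted p = 3.41e-12). With siR-2 it stood at 1.76, 1.83 and 1.88 CPM, and the siR-1 libraries were higher than these by 0.72 on the log2 scale (edgeR adjusted p = 6.11e-05). The knockdown with siR-1 was the shallower of the pair. Of its exon bases, 5.90% overlap the gene 4930562F07Rik, and reads from that stretch cannot be told apart without strand, which no source used here states.

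With siR-1, 423 genes were higher than in Scrambled and 513 were lower past the threshold, meaning an adjusted p no larger than 0.05 and at least a 2-fold change (edgeR, 9 libraries in 1 fit), which is 2.15% and 2.61% of the genes tested. Dropping the fold criterion gave 3845 higher genes (19.5%) and 4008 lower genes (20.4%). Of the 423 higher and 513 lower genes, 117 and 110 changed at least 4-fold. The median absolute log2 fold change was 1.41 in both directions. Without Scrambled replicate 3, the library with Alb, 400 genes were higher and 446 lower. Just inside the threshold lay Zfp27, H6pd and Zbp1 (log2 fold change 1 to 2 decimals) and Haus5 and Serpinb9 (-1), and just outside it Islr (-0.999), Knop1 (0.998), Enho (-0.997), Lrrc70 (-0.997) and Fam131b (-0.996).

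The largest rises were led by the initiator of coagulation and by chemokines. Only genes whose siR-1 and Scrambled libraries did not overlap were ranked as largest rises or falls, so that separation is no result. F3, which encodes tissue factor, the receptor that starts the extrinsic clotting cascade, went from 31.6, 31.9 and 29.9 CPM in Scrambled to 423, 429.9 and 425 CPM with siR-1, a log2 fold change of 3.78 ± 0.04 (edgeR adjusted p = 4.56e-19). Its siR-2 libraries, at 205, 207 and 222 CPM, lay between the other groups. Cxcl5, a neutrophil-attracting chemokine, was at 29.8, 29.8 and 28 CPM in Scrambled and at 284, 285 and 275 CPM with siR-1. The groups were far apart, and the rise was 9.64-fold (log2 fold change 3.27 ± 0.04, edgeR adjusted p = 6.23e-18). Cpxm1, a carboxypeptidase-like matrix protein, rose 8.97-fold, from 19.8, 16.9 and 20.7 to 179, 163 and 174 CPM (edgeR adjusted p = 3.37e-10). Hmox1, the haem-degrading enzyme heme oxygenase 1, rose from 242, 235 and 239 to 1434, 1493 and 1460.0 CPM, a log2 fold change of 2.62 ± 0.03 (edgeR adjusted p = 3.5e-18).

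Most of the other 10 largest rises were of genes with few reads. Ccl20, the ligand of CCR6, was at 0.653, 0.442 and 0.185 CPM in Scrambled and 2.82, 3.3 and 2.65 CPM with siR-1 (log2 fold change 2.78 ± 0.33, edgeR adjusted p = 3.09e-06). Il13ra2, the decoy receptor of IL-13, was at 0.0909, 0.175 and 0.378 CPM in Scrambled and 1.7, 1.72 and 1.72 CPM with siR-1. Hlf, a PAR bZIP transcription factor, was at 0.545, 0.701 and 0.378 CPM in Scrambled and 3.51, 2.71 and 3.77 CPM with siR-1. For each of these the 3 siR-1 libraries exceeded all 3 Scrambled libraries, as the ranking required. Ccl8, a monocyte-attracting chemokine, was at 0.339, 0.442 and 0.402 CPM in Scrambled, 3.02, 1.9 and 3 CPM with siR-1 and 5.46, 4.78 and 5.85 CPM with siR-2. Cxcl3, a neutrophil attractant with close paralogs, was at 0.57, 0.342 and 0.402 CPM in Scrambled, 2.57, 2.4 and 3.33 CPM with siR-1 and 5.4, 4.98 and 7.1 CPM with siR-2. Both chemokines were highest with siR-2. Rasgef1c, a Ras guanine-nucleotide exchange factor, rose by 3.04 ± 0.24 on the log2 scale, and its siR-2 libraries reached about the same level (siR-1 minus siR-2 0.04 ± 0.21). Prl8a9, a member of the prolactin family, rose by 3.26 ± 0.30 and was higher than with siR-2 by 1.92 ± 0.28; reads from close prolactin paralogs could have been split between them, so its level is uncertain. Outside the 10 largest, as Hmox1 was, Adamts12, a secreted metalloproteinase, rose from 12.6, 12.1 and 12.4 to 68.9, 68.9 and 70.8 CPM (5.61-fold, edgeR adjusted p = 8.43e-15).

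**Figure D1:**
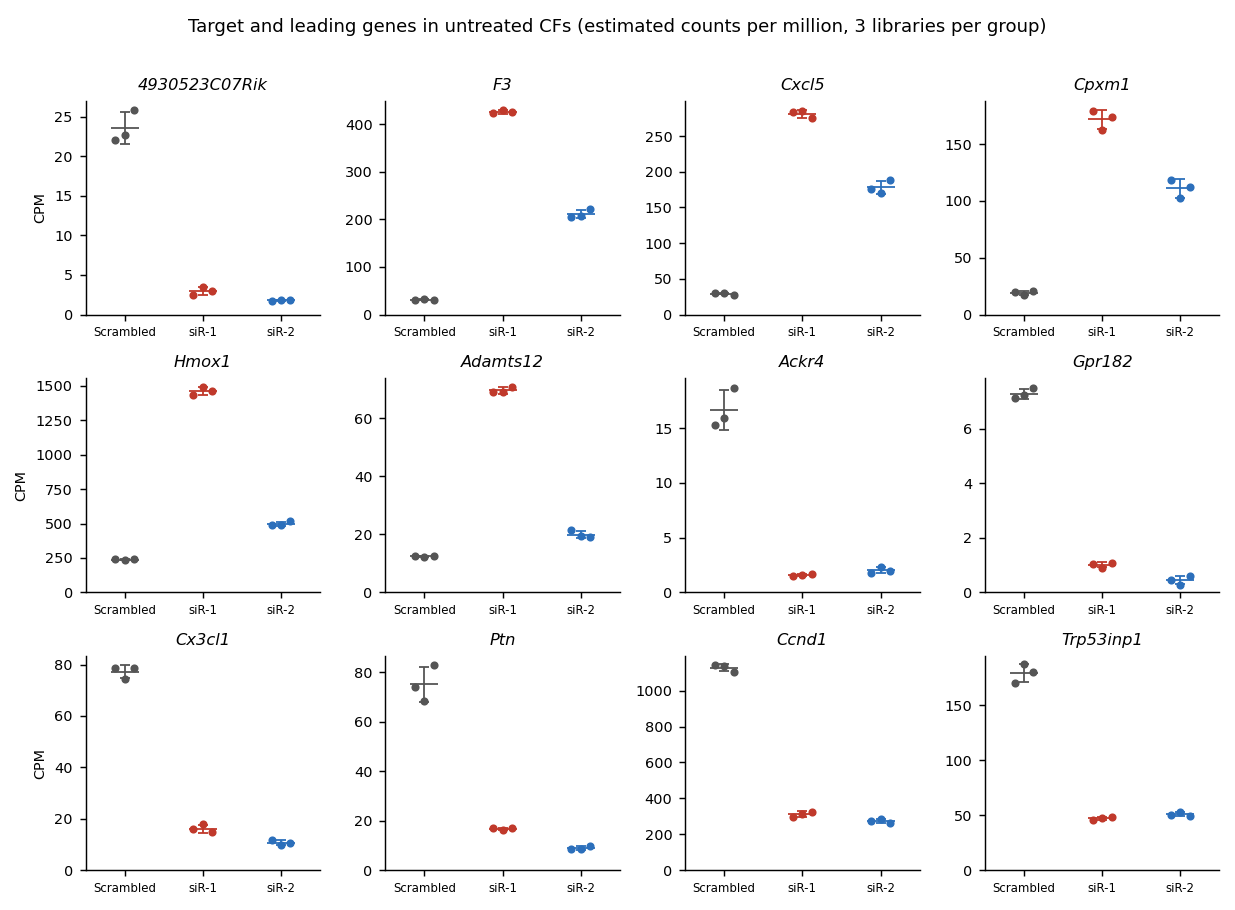
Level in CPM (linear axis, from 0) of the target, 4930523C07Rik, and of 11 leading genes in each untreated library. Points are libraries, horizontal bars are group means and vertical bars are the SD over 3 libraries. The siR-1 and Scrambled libraries do not overlap in any panel, which the choice of the largest rises and falls required. In the F3 panel siR-1 lies above siR-2 and Scrambled.

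Promoter windows were looked up for the genes of these rises and of the mitotic genes below. The 5 shown include 1 of a gene that fell, and in each only 1 motif, picked with the gene, is marked. The sequences are from RefSeq (GRCm38.p6), cover the 160 bases before the start site, and were chosen after the values were seen; 33 of the 41 leading, siR-1-apart or opposite-moving genes had an entry. Capitals mark TGANTCA, the AP-1 motif, in F3 and Mmp3, GGGNNTTNCC, a κB motif, in Cxcl3 and Ccl20, and CCAAT, the NF-Y box, in Ccnb2. Both strands were searched, overlapping matches were counted as separate hits, and each sequence is written 5′ to 3′ on the gene's strand. TTTGAA, the CHR motif, was searched as well and is not marked.
F3 (chr3:121723377-121723536, + strand): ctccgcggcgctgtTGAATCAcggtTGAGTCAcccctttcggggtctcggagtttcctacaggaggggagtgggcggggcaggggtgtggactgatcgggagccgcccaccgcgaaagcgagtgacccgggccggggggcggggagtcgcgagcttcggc
Cxcl3 (chr5:90785941-90786100, + strand): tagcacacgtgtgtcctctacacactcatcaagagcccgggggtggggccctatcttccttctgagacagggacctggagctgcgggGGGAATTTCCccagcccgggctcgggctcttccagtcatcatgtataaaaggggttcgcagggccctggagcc
Ccl20 (chr1:83116606-83116765, + strand): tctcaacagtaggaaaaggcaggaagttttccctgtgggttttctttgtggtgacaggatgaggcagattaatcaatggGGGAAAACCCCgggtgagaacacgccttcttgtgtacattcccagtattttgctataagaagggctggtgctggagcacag
Mmp3 (chr9:7445662-7445821, + strand): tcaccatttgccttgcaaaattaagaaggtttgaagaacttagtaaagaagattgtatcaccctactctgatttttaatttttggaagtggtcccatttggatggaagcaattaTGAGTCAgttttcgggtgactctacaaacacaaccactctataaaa
Ccnb2 (chr9:70421555-70421714, - strand): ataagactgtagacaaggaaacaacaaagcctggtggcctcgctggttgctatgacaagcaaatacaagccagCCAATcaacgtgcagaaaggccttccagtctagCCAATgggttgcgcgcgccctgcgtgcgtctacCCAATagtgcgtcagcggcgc
Among these, F3 held a pair of AP-1 matches, from 146 and from 135 bases before the start, and Mmp3 held 1 match from 46 bases before it. The κB matches began 73 bases before the start of Cxcl3 and 81 and 80 bases before that of Ccl20, the latter pair overlapping and being the reverse complement of the motif. Among all 32851 promoter windows in the table, 4.53% held the AP-1 motif, 2.78% the κB motif and 25.6% the CCAAT box. Of the 48 promoters of the 33 matched genes, 1 held AP-1 and 3 held κB. By list, κB was in 5 of 10 CXC and 2 of 13 CC and CX3C chemokine windows. It was also in 4 of 25 mitosis, 3 of 27 DNA replication and 0 of 36 NRF2 and glutathione windows. A match is a description of letters and not a measured site.

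Ackr4 and Gpr182, both atypical chemokine receptors, were among the largest falls. Ackr4, an atypical receptor that removes CCL19, CCL21 and CCL25, fell from 15.3, 16 and 18.7 CPM to 1.49, 1.57 and 1.7 CPM, a 10.5-fold fall (log2 fold change -3.39 ± 0.12, edgeR adjusted p = 2.39e-12). All 3 siR-1 libraries lay below all Scrambled libraries, as the ranking required, and 8.90% of its exon bases overlap Acad11. Cx3cl1, the membrane-bound chemokine fractalkine, fell from 78.8, 74.3 and 78.6 to 15.9, 17.7 and 14.6 CPM (edgeR adjusted p = 4.38e-13). Ptn, the heparin-binding growth factor pleiotrophin, fell from 73.8, 68.5 and 82.8 to 17, 16 and 16.9 CPM, which is 4.51-fold. With siR-2 both fell further, to 10.7 ± 0.913 and 8.85 ± 0.704 CPM (SD, n = 3). Gpr182 fell by 2.85 on the log2 scale and was higher than with siR-2 by 1.2 ± 0.21.

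Lower-count falls were Ano4, Ttc39a, Spn (sialophorin, CD43), Tet1 (a 5-methylcytosine dioxygenase) and Celf5, each 4.47- to 5.53-fold lower than in Scrambled. Tet1 was at 2.94, 2.6 and 2.08 CPM in Scrambled and 0.387, 0.552 and 0.64 CPM with siR-1, and was lower still with siR-2 (siR-1 minus siR-2 1.06 ± 0.26). For Ano4, Ttc39a, Spn and Celf5 the siR-1 minus siR-2 difference did not pass the threshold, and for Spn it was -0.38 ± 0.24 (SE; edgeR adjusted p = 0.221). Psd3, a guanine-nucleotide exchange factor of Arf6, was at 62.3, 65.7 and 59.7 CPM in Scrambled and 13.2, 11.7 and 14.3 CPM with siR-1, a 4.78-fold fall. It was the only one of the 10 largest falls in which the siR-2 libraries, at 81.8, 87.5 and 80.5 CPM, lay above the Scrambled libraries.

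Chemokines were the first functional group. CXC chemokines bind receptors of neutrophils and other leukocytes, and of 9 tested among 14 listed, 4 were higher at the adjusted p and 1 was lower, with 3 past the 2-fold threshold; the background is 19.5% higher and 20.4% lower. Cxcl1, another neutrophil attractant, was at 2.75, 2.58 and 1.77 CPM in Scrambled and 7.16, 5.06 and 6.62 CPM with siR-1, with the groups apart. Of 12 CC and CX3C chemokines tested among 18 listed, 4 passed the threshold higher and 3 lower, against 2.15% and 2.61% of all genes. Ccl7, a monocyte attractant, went from 23.7 ± 2.02 to 117 ± 3.2 CPM (SD, n = 3) and was not apart from siR-2 (siR-1 minus siR-2 0.04 ± 0.05). Ccl11 was at 0 in all 3 Scrambled libraries and at 0.0791, 0.0891 and 0.24 CPM with siR-1, values so low that no fold is given. The list's median log2 fold change was -0.02, or -0.11 with Ccl11 at its bound, against -0.02 over all genes tested.

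Il6, the pro-inflammatory cytokine, was at 20.2, 19.3 and 18.7 CPM in Scrambled, 49.5, 48.4 and 48.6 CPM with siR-1 and 130.1, 128 and 139 CPM with siR-2, so its rise with siR-1 (log2 fold change 1.33 ± 0.04) was smaller than with siR-2 by 1.44 ± 0.04 on the log2 scale (edgeR adjusted p = 8.64e-14). Il1rap, the co-receptor of IL-1, was at 136, 132 and 129.6 CPM in Scrambled and 306, 293 and 301 CPM with siR-1, and its siR-2 libraries, at 144 ± 3.07 CPM (SD, n = 3), stayed near Scrambled. Of the 19 IL-6 and IL-1 family genes tested, 9 were higher and 4 lower at the adjusted p, against 19.5% and 20.4% of all genes. Of 21 NF-κB subunits, inhibitors and feedback genes, 11 were higher and 2 lower, with none past 2-fold. Of 21 complement and acute-phase genes, 4 were past the threshold higher and none lower, the background being 2.15% and 2.61%. Steap4, a metalloreductase, was at 0.777, 0.392 and 1.12 CPM in Scrambled and 3.82, 3.42 and 3.82 CPM with siR-1. C3, the central complement component, was at 48.6, 39.1 and 61 CPM in Scrambled and 146, 109 and 129 CPM with siR-1. In both the groups did not overlap. S100a8 was at 0 in all 3 Scrambled libraries and at 0.141, 0.196 and 0 CPM with siR-1, too few reads for a fold.

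Of the clotting and fibrinolysis genes, 2 rose and 2 fell past the threshold, against 2.15% and 2.61% of all genes. Beside the rise of F3, F2r, the thrombin receptor PAR1, rose from 248, 247 and 235 to 621, 620.1 and 601 CPM (log2 fold change 1.34 ± 0.03, edgeR adjusted p = 1.3e-14). The genes that fell encode plasminogen activators. Plau (urokinase) was at 113, 110.2 and 111 CPM in Scrambled and 46.3, 45.7 and 44.5 CPM with siR-1. Plat (tissue-type) was at 164, 153 and 161 CPM in Scrambled and 72.4, 74.1 and 73.7 CPM with siR-1. Neither overlapped between the groups. Of the 19 genes tested in the list, 12 were higher and 3 lower at the adjusted p, against 19.5% and 20.4% of all genes.

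Matrix genes were mixed. Of 30 metalloproteinases, TIMPs and ADAMTS proteases tested, 17 were higher and 5 lower at the adjusted p, and 6 and 3 passed 2-fold. Over all genes tested the shares were 19.5% and 20.4%, and past 2-fold 2.15% and 2.61%. Mmp3 (stromelysin 1) went from 376, 377 and 433 to 1382, 1317 and 1422 CPM, and Mmp8 (neutrophil collagenase) from 0.81, 0.659 and 1.22 to 4.13, 3.36 and 4.1 CPM; both siR-1 groups were above all Scrambled libraries. Among 28 collagens, 14 were higher and 6 lower, with Col12a1, a fibril-associated collagen, past the threshold higher (539, 611 and 479 to 1410.4, 1436 and 1506 CPM) and Col6a3, a beaded-filament collagen, past it lower (86.6, 89.8 and 86.3 to 37.7, 32.6 and 40.9 CPM). Lox, which crosslinks collagen, rose by 1.1 ± 0.03 on the log2 scale, and Plod2, which hydroxylates its telopeptide lysines, fell from 439.6, 446 and 439 to 211, 202 and 208 CPM.

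Acta2, Col1a1 and Postn, genes of the activated CF, stayed within 2-fold. Acta2, smooth-muscle α-actin, was at 1055, 1026 and 1064 CPM in Scrambled and 1279, 1257 and 1182 CPM with siR-1 (log2 fold change 0.24 ± 0.03, edgeR adjusted p = 1.98e-05), and Col1a1, of the main fibrillar collagen, was at 3757, 3797 and 3688 CPM in Scrambled and 5266, 5209 and 5295 CPM with siR-1 (0.49 ± 0.03). Postn, a matricellular protein of activated CFs, stood at -0.02 ± 0.03 (edgeR adjusted p = 0.672). Of the 20 contractile genes tested, 10 were higher and 4 lower at the adjusted p, against 19.5% and 20.4% of all genes. Myl9 was the 1 past 2-fold, at 82.8 ± 5.31 CPM in Scrambled and 38.4 ± 1.93 CPM with siR-1 (SD, n = 3). Among 24 genes of cardiac fibroblast identity, 6 were higher and 13 lower, and 1 passed 2-fold, Pdpn (podoplanin), which rose from 217, 219 and 212 to 509.9, 507 and 542 CPM.

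Genes of the cell cycle were lower almost throughout. Of 30 mitosis and spindle-checkpoint genes, 30 were lower and 0 higher at the adjusted p (background 20.4% and 19.5%), with a median log2 fold change of -0.74 and a range from -1.16 to -0.41. Ccnb2, cyclin B2, was at 68.1, 69.2 and 69.4 CPM in Scrambled and 31.7, 30.7 and 33 CPM with siR-1, and Ccna2, cyclin A2, was at 127, 116 and 125 CPM in Scrambled and 56.2, 53.6 and 55.4 CPM with siR-1; 12.5% of the Ccna2 exon bases overlap Exosc9. Both were lower still with siR-2, at 19.6 ± 2.42 and 37.4 ± 3.57 CPM (SD, n = 3). Of 30 DNA replication genes, 27 were lower and none higher, with a median of -0.57; Mcm5, of the replicative helicase, fell from 78.6, 71.1 and 77.1 to 37.5, 35 and 38.5 CPM. Ccnd1, cyclin D1, which partners CDK4 and CDK6, fell from 1144, 1138 and 1107 to 298, 314 and 326 CPM (log2 fold change -1.85 ± 0.04, edgeR adjusted p = 7.3e-15); 23.4% of its exon bases overlap LTO1. The Ccnb2 promoter printed above held 3 CCAAT boxes spaced 33 bases apart, and 19 of the 25 promoter windows found for the mitosis list held a CCAAT box (76%, against 25.6% of all windows), as did 17 of the 27 for the DNA replication list (63%). The CHR motif was in 7 of the 25 mitosis windows (28%) and 2 of the 27 DNA replication windows (7.41%), against 9.76% of all windows.

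Among p53 targets, Trp53inp1 fell from 170.4, 187 and 179.7 to 45.8, 47 and 48.6 CPM (log2 fold change -1.93 ± 0.04, edgeR adjusted p = 8.43e-15), while Gdf15, a stress-induced TGF-β family member, rose by 1.12 ± 0.10. Of 24 p53 targets, 8 were higher and 13 lower at the adjusted p, against 19.5% and 20.4% of all genes.

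NRF2 is a transcription factor that induces detoxification and glutathione genes, and BACH1 is a repressor that competes for the same sites. Of 33 NRF2 targets and glutathione enzymes, 25 were higher and 3 lower at the adjusted p (background 19.5% and 20.4%), with 7 past 2-fold and a median of 0.44. After Hmox1 the largest was Taldo1 (transaldolase, of the pentose phosphate pathway), which rose from 49, 53.3 and 51.5 to 171, 182 and 173 CPM. Gsta1, a glutathione transferase, rose by 1.5 ± 0.15 and Ugt1a6a by 1.51 ± 0.24; 50.3% of the Ugt1a6a exon bases overlap other Ugt1a genes, so its value is uncertain. Bach1 itself fell from 56.4, 57.9 and 52.1 to 22, 21.6 and 22.9 CPM with siR-1 and was at 67.3, 70.6 and 66 CPM with siR-2.

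Among growth-factor and second-messenger genes, of 25 IGF and BMP axis genes, 17 were higher and 1 lower at the adjusted p (against 19.5% and 20.4% of all genes, median 0.40); Igfbp5 rose from 3.01, 2.6 and 3.4 to 21.4, 10.8 and 16.7 CPM, and Pappa, a protease that releases IGF from its binding proteins, from 29, 34 and 26.6 to 76.6, 78.9 and 78.5 CPM. Fgf10 rose by 2.1 ± 0.14 and Fgf7 by 1.21 ± 0.07, while Hbegf, an EGF-receptor ligand, fell by 1.12 ± 0.05 (edgeR adjusted p = 1.14e-11). Inhbb, a subunit of activin B, rose from 38.5, 38.4 and 38.9 to 115, 110.0 and 115 CPM, and Tgfbr1, the type I TGF-β receptor, fell from 115, 119.6 and 109 to 49.3, 50.8 and 49.2 CPM. Of 40 cGMP and cAMP signalling genes, 8 were higher, close to the share of all genes, and 21 lower, with 4 in each direction past 2-fold. The largest fall of that list was of Adcy4, an adenylyl cyclase, by 1.21 on the log2 scale.

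Of 30 AP-1 and immediate-early genes, 17 were lower and 8 higher at the adjusted p, against 20.4% and 19.5% of all genes. Egr1, a serum-induced zinc-finger factor, fell from 91, 92.4 and 97.3 to 42, 41.9 and 38.1 CPM. Cebpb rose from 38.7, 35.7 and 40.3 to 92.2, 87.8 and 82.1 CPM, with 20.7% of its exon bases shared with Tmem189. Of 30 interferon-stimulated genes, 2 were lower and 0 higher at the adjusted p. Ifit3, an interferon-induced antiviral gene, was at 169, 86 and 138 CPM in Scrambled and 109, 80.4 and 169 CPM with siR-1, and the groups overlapped. HIF-1 targets had 13 higher and 8 lower of 30, with none past 2-fold, and Hif1a, the regulated subunit of the factor, was at 199.6, 204 and 194 CPM in Scrambled and 256, 253 and 255 CPM with siR-1 (log2 fold change 0.35 ± 0.03).

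**Figure D2:**
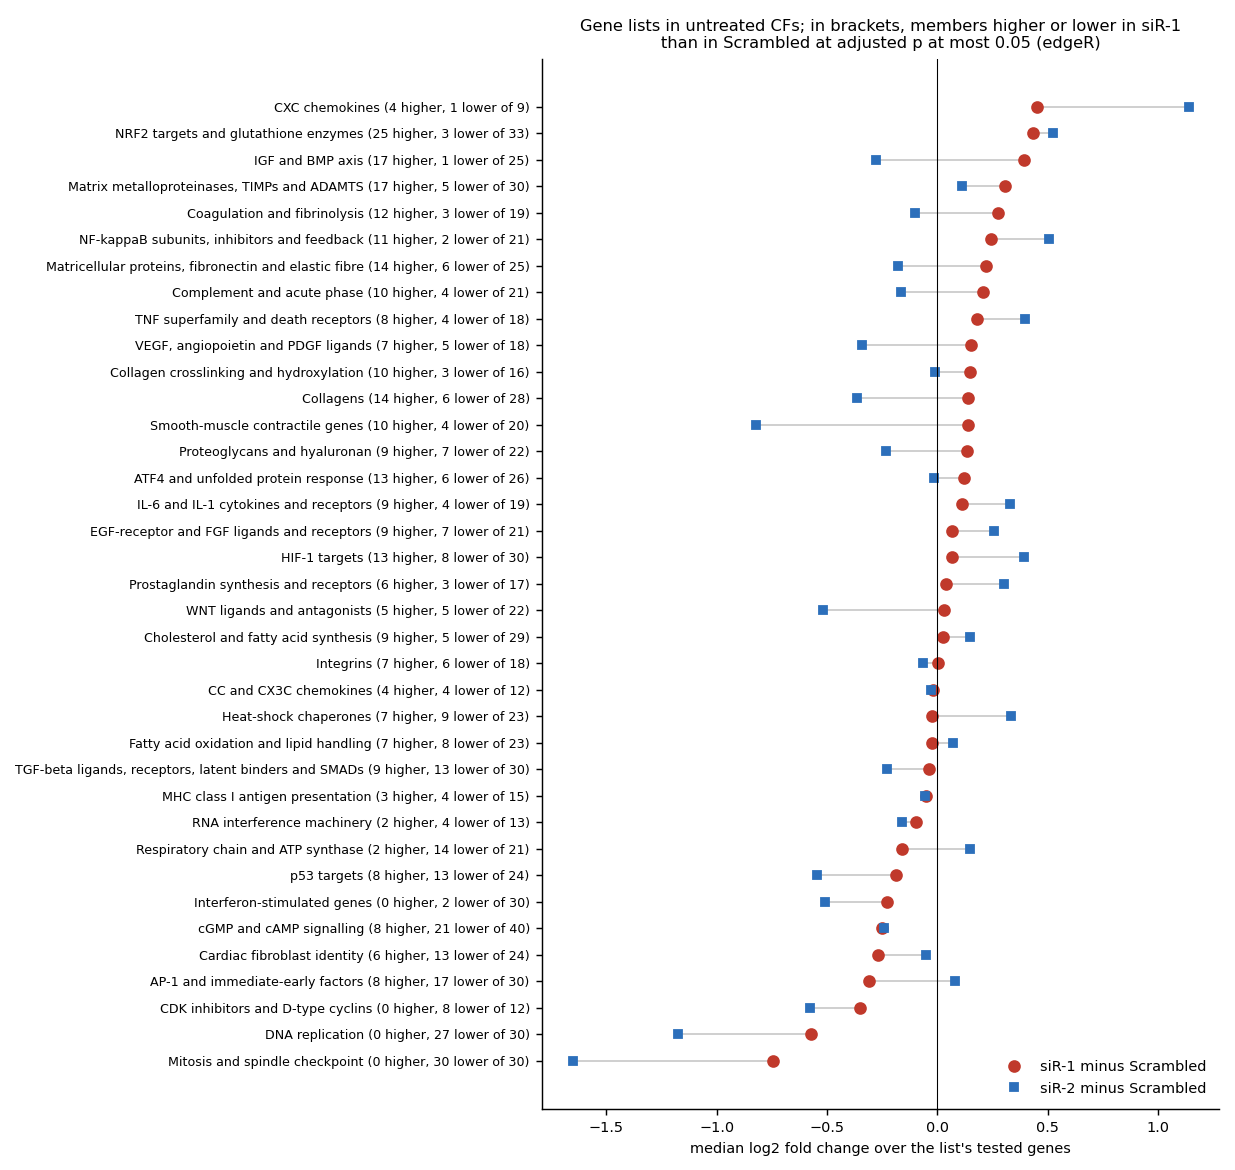
Median log2 fold change of each gene list against Scrambled, for siR-1 (circles) and siR-2 (squares), in untreated CFs; the brackets count members higher or lower with siR-1 at an adjusted p of at most 0.05. Both comparisons share the Scrambled libraries, and the mitosis and DNA replication lists have the lowest medians of the 37 lists shown for both siRNAs.

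Markers of other cell types were read over the same libraries. The summed level of 14 cardiomyocyte markers was 91.7 to 99.5 CPM in Scrambled and 43.2 to 48.1 CPM with siR-1, almost all of it Tnnt2, which fell from 93.5 ± 4.27 to 44.3 ± 2.94 CPM (SD, n = 3), while Myh6, Myh7 and Myl7 were at or near 0. The 7 pericyte and smooth-muscle markers summed to 129 to 139 CPM in Scrambled and 75.3 to 81.6 CPM with siR-1, with Notch3 and Mcam past 2-fold lower; 1 of the 7 was higher and 3 were lower at the adjusted p. Endothelial markers summed to 113 to 126 and 96.1 to 103 CPM (3 of 11 lower), and mesothelial markers to 143 to 158 and 133 to 139 CPM (1 of 8 lower). Leukocyte markers summed to 62.1 to 67.4 and 62.0 to 65.5 CPM, with 1 of 13 tested higher and 3 lower, and Cd3e was at 0 in all libraries. These marker counts are at the adjusted p, where 19.5% of all genes were higher and 20.4% lower. Mitochondrially encoded genes summed to 23098 to 24251 CPM in Scrambled and 22678 to 23516 CPM with siR-1. The part of these cell types in the results above was not tested.

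The comparison with siR-2 asked which changes were apart from the second siRNA. With siR-1, 867 genes were higher than with siR-2 past the threshold and 441 lower (4.41% and 2.24% of the genes tested), or 4482 and 4471 at the adjusted p alone (22.8% and 22.7%). Both comparisons use the siR-1 libraries, so the genes that passed both, in the same direction, are described only. There were 82 such genes that were higher, and 90 that were lower, under siR-1. Of these, 70 and 68 were protein coding, and 47 and 40 had a mean of at least 1 CPM. Of the 90 lower genes, 32 were at or under 18 estimated counts, or 3 read pairs, in all 3 siR-1 libraries and 21 of those were at 0 in all of them, which makes their values imprecise.

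Among the genes named by rule, the higher group was led by membrane and signalling genes. Aoc3, a membrane amine oxidase involved in leukocyte adhesion, was at 2.42, 2.21 and 2.48 CPM in Scrambled, 8.25, 6.7 and 7.3 CPM with siR-1 and 0.771, 0.354 and 0.64 CPM with siR-2. The siR-1 libraries were above both other groups, and siR-2 was below Scrambled. For the 10 genes per direction furthest from siR-2, separation of siR-1 from both groups was a condition of the choice and is no result. Prkar2b, a regulatory subunit of the cAMP-dependent kinase, was at 169, 169 and 160.1 CPM in Scrambled, 358, 366 and 357 CPM with siR-1 and 77.6, 77.4 and 76.4 CPM with siR-2, in the same order. Npr3, the clearance receptor of natriuretic peptides, was at 24.1, 25 and 24 CPM in Scrambled, 82, 80.2 and 76.5 CPM with siR-1 and 18.6, 18 and 19.2 CPM with siR-2. Adcy1, an adenylyl cyclase, was at 3.26, 4.37 and 3.42 CPM in Scrambled, 9.65, 10.6 and 12.5 CPM with siR-1 and 3, 2.52 and 2.02 CPM with siR-2. In Npr3 and Adcy1 the siR-2 libraries lay a little under Scrambled. Against Scrambled the log2 fold changes were 1.12 ± 0.03 for Prkar2b, 1.71 ± 0.05 for Npr3 and 1.57 ± 0.15 for Adcy1, and against siR-2 2.22 ± 0.03, 2.1 ± 0.05 and 2.12 ± 0.15. In the cGMP and cAMP list as a whole, 4 of 40 genes were higher and 2 lower past both thresholds, against 82 and 90 of all 19669 genes tested.

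Receptors, secreted proteins and enzymes that act on the matrix were among the other named genes of the higher group, which was not classified as a whole. Avpr1a, the vasopressin V1a receptor, was at 10.8, 10.7 and 10.7 CPM in Scrambled, 28.2, 27.7 and 29 CPM with siR-1 and 5.63, 6.45 and 6.52 CPM with siR-2. Piezo2, a mechanosensitive channel, was at 11.5 ± 0.633, 23.7 ± 0.788 and 3.76 ± 0.465 CPM (SD, n = 3), and Sema6a, a transmembrane semaphorin, at 3.51 ± 0.549, 10.6 ± 0.265 and 2.51 ± 0.177 CPM. Inhbb and Pappa, given above, were at 32.3 ± 5.03 and 23.9 ± 2.22 CPM with siR-2, below every siR-1 library. Has2, which makes hyaluronan, stood at 5.99, 5 and 4.53 CPM in Scrambled, 13.7, 14 and 13 CPM with siR-1 and 4.84, 3.84 and 4.82 CPM with siR-2. Ccl20, F3, Hmox1, Adamts12 and Col12a1 also passed both thresholds: for F3 the difference from siR-2 was 1.01 ± 0.03, for Hmox1 1.56 ± 0.03 and for Col12a1 1.3 ± 0.09 on the log2 scale. F3 and Hmox1 also rose past the threshold with siR-2, Hmox1 to 497 ± 16 CPM (SD, n = 3; log2 fold change against Scrambled 1.06 ± 0.03, edgeR adjusted p = 4.32e-14). Of the 82 higher and 90 lower genes, 5 and 2 passed the threshold in the same direction with siR-2, 5 and 3 in the other direction, and 72 and 85 in neither. Flvcr2, a choline and haem transporter family member, and Zfp982, a zinc-finger gene with close paralogs, completed the 10 largest, at log2 differences from siR-2 of 2.39 ± 0.25 and 2.34 ± 0.15.

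The lower group was led by Psd3 and by an enzyme of NADPH metabolism. Idh1, cytosolic isocitrate dehydrogenase, was at 101, 101 and 101 CPM in Scrambled, 44.5, 44.8 and 42.4 CPM with siR-1 and 262, 268 and 267 CPM with siR-2, so its siR-1 and siR-2 libraries lay on opposite sides of Scrambled. Capza2, a subunit of the actin-capping protein, was at 229, 228 and 239 CPM in Scrambled, 76.8, 73.3 and 74.7 CPM with siR-1 and 339, 336 and 339.9 CPM with siR-2. Arl2bp, a binding partner of the small GTPase ARL2, was at 97.7, 99.2 and 97.4 CPM in Scrambled, 36.5, 36.5 and 36.8 CPM with siR-1 and 137, 147 and 140.3 CPM with siR-2. In both, siR-2 was above Scrambled and siR-1 below. Spon2, a secreted matrix protein, was at 103, 91 and 107 CPM in Scrambled, 30.5, 28 and 35.2 CPM with siR-1 and 115, 100.2 and 110.1 CPM with siR-2. Bach1, as given above, was below both other groups.

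Cyclic-nucleotide phosphodiesterases were also in the lower group. Pde4b, which degrades cAMP, was at 50.01, 48.5 and 47.8 CPM in Scrambled, 23.8, 21 and 20.7 CPM with siR-1 and 71.6, 67.9 and 65.4 CPM with siR-2. Pde7b, another cAMP phosphodiesterase, was at 11.7, 11.7 and 11.1 CPM in Scrambled, 5.53, 5.4 and 6.06 CPM with siR-1 and 22.9, 21.5 and 21.8 CPM with siR-2. In both the siR-1 libraries were the lowest of the 9, but without siR-1 replicate 2 the log2 fold change of Pde7b, -1.02, was -0.99, inside 2-fold. Egr3 and Nr4a1, immediate-early transcription factors, fell with siR-1 by 1.17 ± 0.16 and 1.1 ± 0.07 on the log2 scale and were below siR-2 by 2.17 ± 0.16 and 1.34 ± 0.07. Dlg2, a scaffold protein, was at 6.72 ± 0.462, 2.52 ± 0.288 and 7.77 ± 0.418 CPM (SD, n = 3). Plod2, at 473 ± 11.9 CPM with siR-2, was lower with siR-1 than with siR-2 by 1.19 ± 0.03 on the log2 scale.

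**Figure D3:**
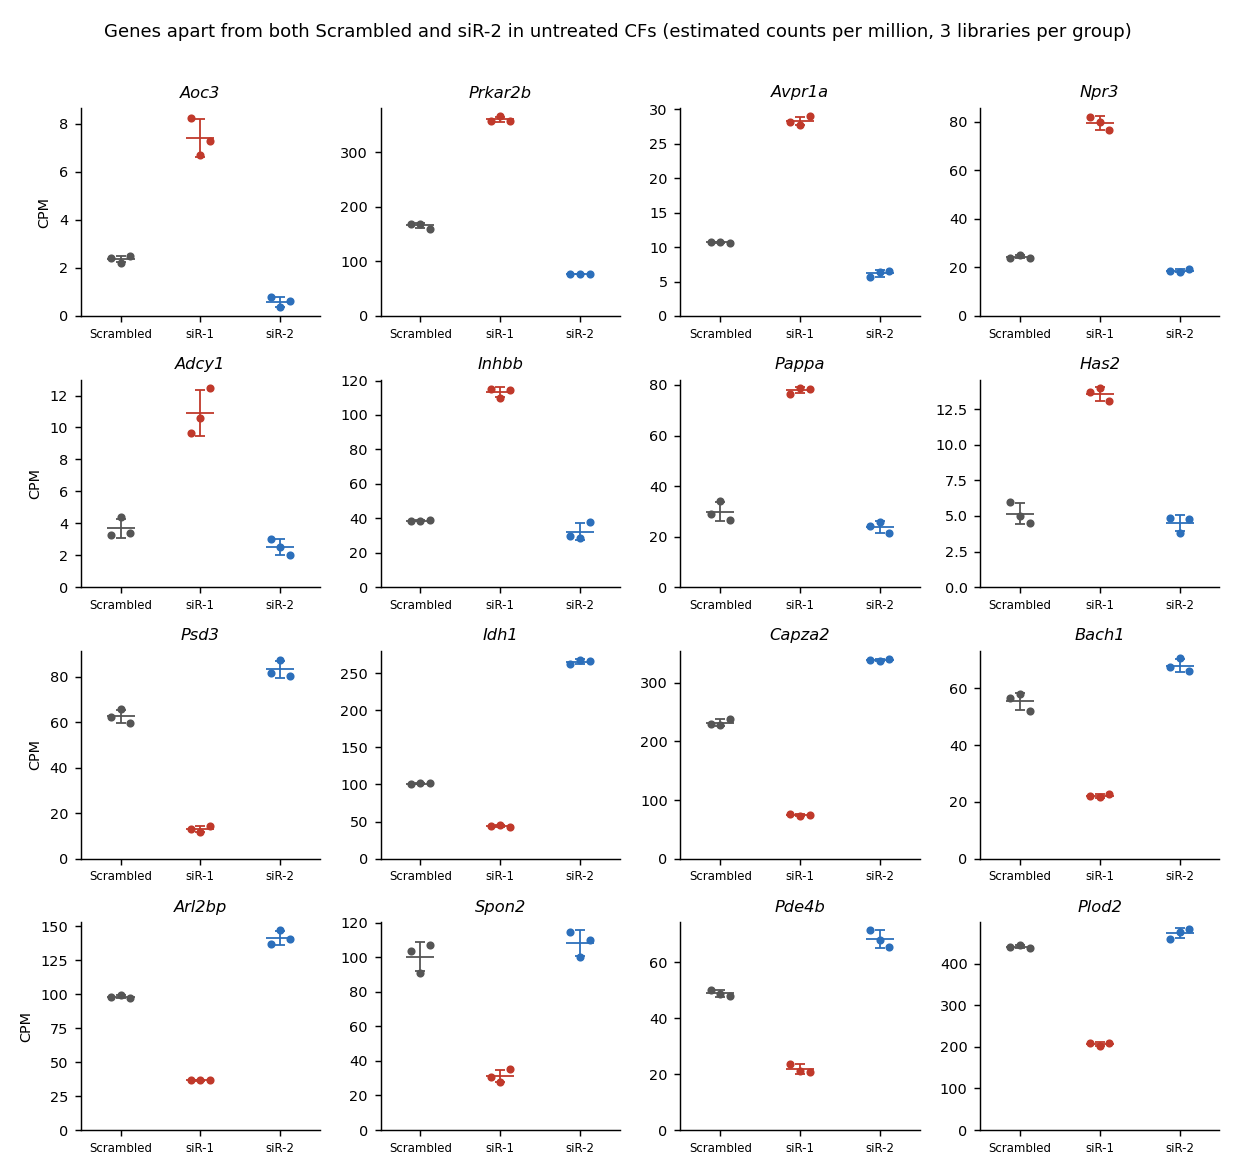
Level in CPM (linear axis, from 0) of 16 genes that passed the threshold with siR-1 against both Scrambled and siR-2, in each untreated library; points are libraries, bars are means and SD over 3 libraries. In the upper panels, from Aoc3 to Has2, siR-1 lies above both groups, and in the lower panels, from Psd3 to Plod2, below both. These directions follow from how the genes were chosen.

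Genes on opposite sides of Scrambled with the 2 siRNAs, each past the threshold, were few. Aoc3, Prkar2b, Piezo2, Flvcr2 and Asic3 were higher with siR-1 and lower with siR-2, and Idh1, Egr3 and Cnga3 were lower with siR-1 and higher with siR-2, among genes with a symbol of their own. Cnga3 was at 0 in all 3 siR-1 libraries and at no more than 27 estimated counts in any Scrambled library, so no fold is given for it. Asic3, an acid-sensing channel, was at 0.628, 0.417 and 0.925 CPM in Scrambled and 1.71, 1.24 and 1.29 CPM with siR-1, and its rise (edgeR adjusted p = 0.0173) was lost when some single libraries were left out, the adjusted p reaching 0.0867 without siR-1 replicate 1, 0.0802 without Scrambled replicate 2 and 0.0573 without Scrambled replicate 1.

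Lists were also read between the siRNAs. All 30 mitosis genes were higher with siR-1 than with siR-2 at the adjusted p (median difference 0.94), as were 24 of 30 DNA replication genes (0.47), 19 of 20 contractile genes (0.63) and 21 of 28 collagens (0.54), against 0.02 over all genes and 22.8% of all genes higher. Acta2 was higher with siR-1 than with siR-2 by 1.01 ± 0.03 on the log2 scale and Postn by 0.84 ± 0.03, while neither passed 2-fold against Scrambled. Lower with siR-1 than with siR-2 were 21 of 30 HIF-1 targets, 14 of 21 NF-κB genes and 20 of 33 NRF2 targets, with 22.7% of all genes lower.

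The libraries with IL-17 and with TGF-β were not used to choose these genes and were read next. In IL-17-treated CFs, siR-1 against Scrambled gave 1111 higher and 1586 lower genes at an adjusted p no larger than 0.05 and at least a 1.5-fold change, the study's criteria there (5.58% and 7.97%), and 279 and 340 passed against both Scrambled and siR-2 (1.4% and 1.71%). Of the 82 genes higher in untreated CFs, 81 were tested with IL-17, and 52 again passed against both groups at this looser 1.5-fold criterion. Of the 90 lower, 84 were tested and 43 passed again. At the 2-fold criterion of the untreated cells, 42 and 30 passed again. None of these genes was past the threshold in the opposite direction against Scrambled. Among those with a mean of at least 1 CPM in untreated cells, 41 of 47 higher and 38 of 40 lower genes passed again at 1.5-fold. The shares of 1.4% and 1.71% are over genes of any level at 1.5-fold.

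With TGF-β fewer of the genes passed again. There 487 genes were higher and 380 lower against Scrambled (2.45% and 1.91%) and 95 and 38 against both groups (0.478% and 0.191%). Of the 80 tested in each direction, 14 higher and 9 lower genes passed against both at 1.5-fold, and 25 and 17 against Scrambled. At 2-fold, 3 and 1 passed against both. The median log2 fold change against Scrambled of the 80 higher genes was 0.37 with TGF-β and 1.40 untreated, and that of the 80 lower genes -0.37 and -1.61. The target was lower by 2.85 on the log2 scale with IL-17 and by 2.23 with TGF-β. The tables of the 3 conditions were processed as separate tables, and their differences were tested in 1 fit over 18 libraries: at a log2 difference of 1 or more either way and an adjusted p no larger than 0.05, the siR-1 effect differed from that in untreated cells for 40 of 21219 genes with IL-17 (0.189%) and for 508 of 21508 with TGF-β (2.36%).

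In all 3 conditions, 12 of 79 higher genes and 8 of 76 lower genes passed against both groups, at 2-fold untreated and 1.5-fold with each stimulus. Of all genes tested, 1.4% and 1.71% passed against both with IL-17, and 0.478% and 0.191% with TGF-β. Hmox1 was 1 of the 12, with log2 fold changes against Scrambled of 2.62 untreated, 2.65 with IL-17 and 2.09 with TGF-β; Ccl20 was another, at 2.78, 2.89 and 1.07, as was F3, at 3.78, 3.55 and 0.61. Capza2, at -1.63, -1.57 and -0.87, Arl2bp, at -1.42, -1.28 and -0.67, and Plod2, at -1.09, -1.30 and -1.01, were among the 8. Prkar2b was higher than Scrambled by 1.39 with TGF-β but above siR-2 by only 0.33. Psd3, the fall furthest from siR-2 among the leading genes, was lower by 0.98 with IL-17 and stood at 0.05 ± 0.06 (SE) with TGF-β (edgeR adjusted p = 0.695).

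**Figure D4:**
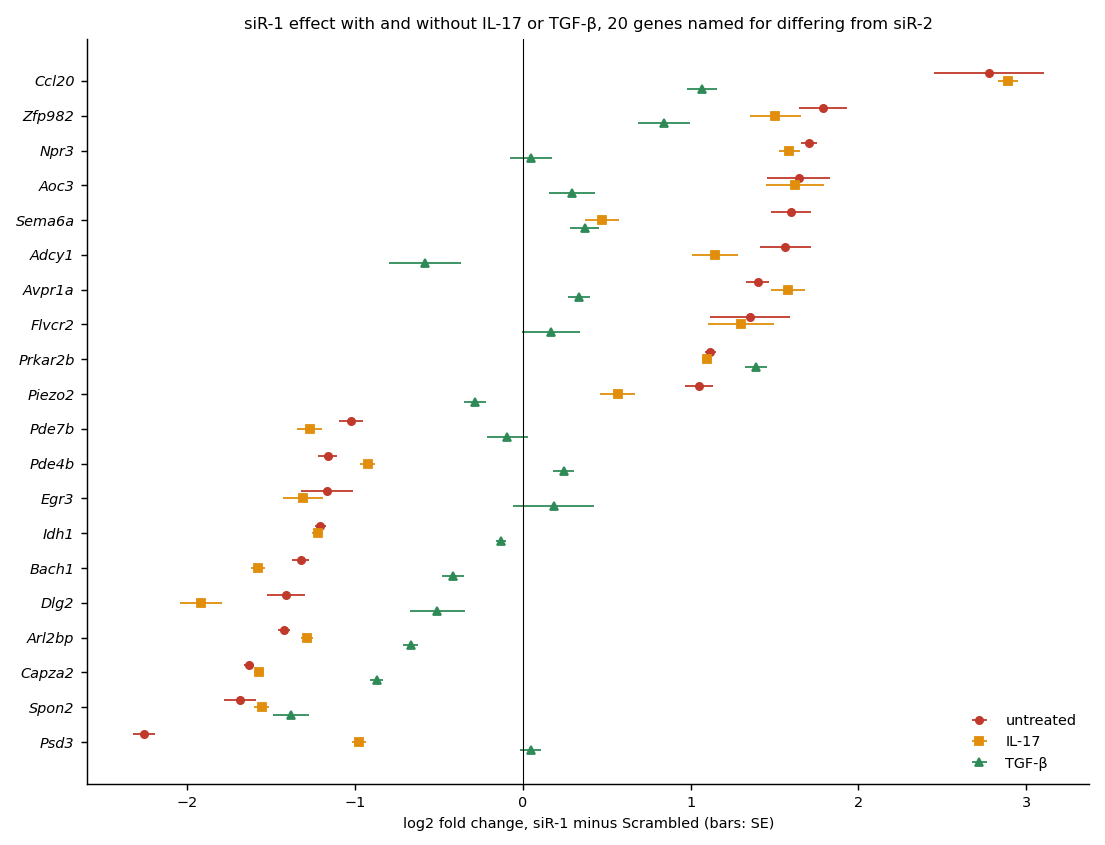
Log2 fold change with siR-1 against Scrambled in untreated (circles), IL-17-treated (squares) and TGF-β-treated (triangles) CFs for the 20 genes with the largest differences from siR-2; bars are SE. The IL-17 values lie near the untreated ones for most genes, Psd3 and Sema6a being the clearest exceptions, and the TGF-β values lie nearer to 0 for all but Prkar2b.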

How the data were processed

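Per the labels, RNA was extracted with Trizol and sequenced by BGIseq/MGIseq protocols; per the study's methods, mRNA was enriched with oligo(dT) beads. The submitters' processing notes name cutadapt, HISAT2, StringTie and DESeq2, and GRCm38. The authors deposited tables of estimated counts per gene (expected counts, whole numbers in which 1 read pair is worth about 6); strand setting, annotation release and the step to whole numbers are not given in the sources used here. Untreated, IL-17 and TGF-β libraries came in separate tables and were fitted separately, except for differences between conditions.

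Estimated counts were fitted with edgeR 4.0.16 (R 4.3.3; quasi-likelihood, robust, TMM, filterByExpr; 9 libraries in 1 fit), with p-values adjusted by Benjamini-Hochberg over all genes tested. The threshold was an adjusted p no larger than 0.05 with at least a 2-fold change (1.5-fold with IL-17 or TGF-β). DESeq2 1.42.0 and other settings served as alternatives, and the fits were tested on simulated data. CPM here are estimated counts over the TMM-scaled library size, and SE is the fold change over the square root of F. Depth was 114763924 to 119232309 estimated counts, and values of genes with few reads are the least precise. Gene coordinates and overlaps are from GENCODE vM21, promoters from RefSeq.

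Named genes were the target; the 10 largest rises and falls of at least 1 CPM on average with groups apart; the 10 per direction furthest from siR-2; genes opposite with siR-2; up to 4 members of each of 45 lists past the threshold, or its 3 most abundant if none; 8 fixed genes (Acta2, Col1a1, Postn, Ccn2, Il6, S100a8, Mmp3, Hif1a); and 5 on each side of the threshold. The 10 per direction furthest from siR-2 met the same filters, and their siR-1 libraries also had to lie apart from those of siR-2. The genes and lists were chosen with earlier results of these data known. A check saw no pairing of the libraries by replicate number, but it cannot tell whether equal numbers mark a shared culture or animal. The heart libraries were not analysed here. No column of another series was present.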

Additional observations from a re-analysis of the deposited data

Results flagged for a closer look

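The effect of siR-1 differed between TGF-β-treated and untreated CFs, by a test of the difference itself (edgeR, Benjamini-Hochberg over all genes tested), for many of the leading genes, and for most of them the TGF-β value was nearer to 0. The adjusted p-values of the differences below, over both stimuli, ran from 2.7e-20 to 0.0363, and each is the siR-1 log2 fold change with the stimulus minus that in untreated cells. Stimulus and deposited table cannot be told apart, although a shift common to all groups of a table drops out of the difference.

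Among the genes that rose in untreated CFs, the TGF-β difference was -3.17 for F3, -2.43 for Cxcl5, -2.21 for Ccl8, -2.12 for Cpxm1, -1.81 for Il13ra2, -1.81 for Hlf, -1.71 for Ccl20, -1.54 for Prl8a9 and -1.16 for Cxcl3. F3 went from a log2 fold change of 3.78 in untreated cells to 0.61 with TGF-β, and Cxcl5 from 3.27 to 0.85. Of the genes that were also above siR-2, it was -2.15 for Adcy1, -1.66 for Npr3, -1.36 for Aoc3, -1.34 for Piezo2, -1.23 for Sema6a, -1.19 for Flvcr2 and -1.07 for Avpr1a. Piezo2 turned from 1.05 to -0.28 (edgeR adjusted p = 0.00323 with TGF-β), whereas the TGF-β value of Adcy1, -0.58, did not pass (edgeR adjusted p = 0.0595).

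Among the genes that fell, the TGF-β difference was 2.81 for Ackr4, 2.59 for Gpr182, 2.39 for Ttc39a, 2.36 for Ano4, 2.30 for Psd3, 1.93 for Tet1, 1.84 for Ptn, 1.73 for Cx3cl1, 1.65 for Celf5 and 1.21 for Spn. It was 1.40 for Pde4b, 1.35 for Egr3 and 1.07 for Idh1, which were also below siR-2.

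With IL-17 fewer named genes differed from untreated cells: Cxcl5 by -1.86, Ccl8 by -1.37, Sema6a by -1.12 and Psd3 by 1.28. The fitted difference of Cnga3 was 6.38, but that gene was at 0 in all 3 untreated siR-1 libraries, so the value depends on the fit and is no measure of size.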

How the results depend on the processing

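Counts against Scrambled, against siR-2 and past both thresholds stayed within 1.5 times under DESeq2, RLE scaling, both other filters, division by 6, fits of the compared libraries alone and each left-out library. Division by 6, which brings values to about 1 per read pair, lowered all of these counts. It gave 305 higher and 433 lower genes against Scrambled, 714 and 343 against siR-2, and 66 and 64 past both. With a 1.5-fold criterion the counts were 1066 higher and 1308 lower against Scrambled, 1995 and 1126 against siR-2, 307 and 254 past both, and 252 list members in place of 102. With no fold criterion they were 3845 and 4008, 4482 and 4471, 1565 and 1713, and 575. Requiring a log2 fold change of 1 under IL-17 gave 474 and 684 genes, with 42 and 30 of the untreated genes past both again. Under TGF-β it gave 158 and 115, with 3 and 1 past both again. These follow from the thresholds themselves.

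The replicate number as a block gave 394 higher and 508 lower genes against Scrambled, 852 and 416 against siR-2, 79 and 74 past both, 1057 and 1544 with IL-17, 456 and 371 with TGF-β, and 37 and 474 for the differences between conditions. Libraries sharing a number had correlations of their deviations from -0.107 to 0.074, and 1 of 9 libraries was closest to its own number, so no pairing by number was seen. With 3 libraries per group, this cannot tell whether equal numbers mark a shared culture or animal.

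Of 2520 values of 159 named genes, 2445 kept direction and side of the adjusted-p criterion, 58 were weaker, 5 stronger and 12 changed sign. Fold size was not part of this count. Among genes past the threshold, leaving out single libraries brought some inside 2-fold. At their weakest Hpgds was at -0.744, Asic3 at 0.859, Id4 at -0.974, Pde7b at -0.990, Psmb9 at -0.991 and Mcm5 at -0.992 on the log2 scale. Some genes past the threshold lost the adjusted-p criterion under some alternatives. Their largest adjusted p (edgeR or DESeq2) was 0.2465 for Hpgds, 0.136 for Ptgfr and 0.127 for Gdf10. It was 0.0867 for Asic3, 0.0707 for Cd79a, 0.0702 for Lcn2 and 0.0641 for Il18. The sign changes were of genes near 0: Ldha (-0.0034 with at least 10 estimated counts in every library, -0.00018 after division by 6, -0.015 to 0.031 leaving out single libraries), and, leaving out single libraries, Chuk (-0.0045 to 0.027), Ifit3 (-0.47 to 0.091), Cox4i1 (-0.018 to 0.078), Cnp (-0.0097 to 0.25) and mt-Nd1 (-0.032 to 0.00071). The cause was not tested.

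Values of genes with few reads are the least precise, and no replicate origin is given.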

Other observations

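Several gene groups not described above had members past the threshold. In the TNF superfamily, Tnfsf18, the ligand of GITR, rose from 34.2, 36.6 and 27.9 to 97.8, 102 and 101 CPM, and Tnfsf10 (TRAIL) and Tnfsf11 (RANKL) fell to 0.156 ± 0.0577 and 0.127 ± 0.112 CPM (SD, n = 3) from 1.09 ± 0.507 and 1.56 ± 0.0684 CPM. Of 18 tested, 8 were higher and 4 lower at the adjusted p, against 19.5% and 20.4% of all genes. The immunoproteasome subunits Psmb8 and Psmb9 fell, Psmb8 from 11.2, 8.21 and 10.4 to 3.85, 3.65 and 5.75 CPM, while the 15 genes of MHC class I antigen presentation had 3 higher and 4 lower, close to those shares of all genes. Reads of Psmb8 can be shared with Gm20496, which overlaps 14.7% of its exon bases.

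Dkk2, a WNT antagonist, rose by 1.88 ± 0.17 on the log2 scale and was above siR-2 by 1.32 ± 0.17, whereas Sfrp4 and Dkk3, also antagonists, fell by 1.23 ± 0.12 and 1.13 ± 0.07. Insig1, which retains the sterol sensor in the endoplasmic reticulum, rose from 24.5, 24.4 and 24.7 to 67.3, 69.9 and 68.7 CPM, and of 29 cholesterol and fatty acid synthesis genes 9 were higher and 5 lower. Of 21 respiratory chain and ATP synthase genes 2 were higher and 14 lower, none past 2-fold. Over all genes 19.5% were higher and 20.4% lower at the adjusted p. Of 13 genes of the RNA interference machinery 2 were higher and 4 lower; Ago2, the slicing Argonaute, was at 284 ± 10.3 CPM with siR-1, against 181 ± 23 in Scrambled and 267 ± 20.7 under siR-2 (SD, n = 3). Of 23 heat-shock chaperones 7 were higher and 9 lower than in Scrambled, and 19 were lower than with siR-2, against 22.7% of all genes lower than with siR-2.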
